A study of Homo sapiens with 8 samples.

Results

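Anti-PML::RARA peaks were examined at 9 genes of phosphoinositide 3 kinase signalling, namely PIK3CA, PIK3CB, PIK3CD, PIK3CG, PIK3R1, PIK3R2, PIK3R5, PIK3AP1 and INPP5D. The peaks were selected on the readout itself, that is, on their presence in the list of reproducible peaks, on the gene symbol that the authors gave them and on their position. A peak was included when it carried the symbol of a listed gene, or when it carried no symbol and its centre lay within 50 kb of the centre of such a peak on the same chromosome. This gave 21 of the 15412 peaks in the list, 6 labelled with a gene and 15 unlabelled. Labelled peaks were found for 6 of the 9 genes, where 29.9% of all 20149 protein-coding genes had one, and none for PIK3CA, PIK3CB and PIK3CG. Because the genes were chosen by these measurements, their presence, heights and widths are described and not tested.

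The study applied Cut&Run, which maps the DNA cut around a protein by an antibody-tethered nuclease, to U937-PR9, a myeloid cell line carrying a zinc-inducible PML::RARA transgene. PML::RARA is the fusion protein of acute promyelocytic leukaemia. Cells were given 100 μM ZnSO4 (induced) or sterile water (uninduced) for 5 h, and nuclei of each were incubated with 4 µg of anti-PML::RARA or anti-RARA antibody, with 2 replicates in each of the 4 groups and 8 libraries in all. The values below come from 1 list, the anti-PML::RARA peaks of induced cells, and the peaks of the other 3 groups were not analysed here. All groups share the cell line and the transgene. None of them is zinc-treated without the transgene, so zinc and the fusion protein cannot be told apart. Each peak has 1 set of values and replicates are not given separately, so the error of a height or width cannot be stated. The sequencing depth is unknown. No expression was measured in these files, so the labelled cell type could not be checked against marker genes.

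Class I PI3 kinases phosphorylate a membrane lipid to make PIP3, which recruits kinases such as AKT to the membrane. Class IA enzymes pair a catalytic subunit with a regulatory subunit and act mainly below receptor tyrosine kinases, whereas the class IB enzyme is coupled to G protein-coupled receptors. INPP5D, also called SHIP1, removes a phosphate from PIP3, and in blood cells it limits the signal.

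Sequences are given first for 4 of the 8 promoters that lay under a peak, as examples of what the peaks covered at gene starts. They are the parts upstream of the start site, outside annotated exons, of RefSeq promoters (GRCh38.p14), placed on hg19 by an exact match that was unique for each of the 16 promoters of the 9 genes. Each is written 5′ to 3′ on the strand of its gene. Capitals mark the letters of 9 motifs on either strand, where copies may overlap: GGAAGT (bound by ETS factors such as PU.1), AGGTCA and GGTTCA (core elements of retinoic acid receptors), TGTGGT (RUNX), TTGCNNAA (C/EBP), TGANTCA (AP-1), GGGCGG (GC box), CCAAT and CACGTG (E box).
PIK3R1 promoter, chr5:67511334-67511567, plus strand, under a labelled peak: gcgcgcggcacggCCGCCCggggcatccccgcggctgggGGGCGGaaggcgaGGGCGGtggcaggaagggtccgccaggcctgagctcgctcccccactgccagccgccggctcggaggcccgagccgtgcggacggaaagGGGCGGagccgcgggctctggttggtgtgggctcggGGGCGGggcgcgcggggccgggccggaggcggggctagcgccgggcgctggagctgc
PIK3CD promoter, chr1:9711539-9711788, plus strand, under a labelled peak: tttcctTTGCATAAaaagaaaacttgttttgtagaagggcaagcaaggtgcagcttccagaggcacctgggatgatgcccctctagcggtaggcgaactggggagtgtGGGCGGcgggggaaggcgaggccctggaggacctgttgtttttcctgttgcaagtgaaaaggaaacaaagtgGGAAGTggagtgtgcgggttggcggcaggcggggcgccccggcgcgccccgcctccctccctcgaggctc
PIK3CA promoter, chr3:178866008-178866144, plus strand, under an unlabelled peak: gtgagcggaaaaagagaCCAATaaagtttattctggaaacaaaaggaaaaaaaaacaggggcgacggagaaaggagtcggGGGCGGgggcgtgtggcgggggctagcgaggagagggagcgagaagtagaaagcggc
PIK3CB promoter, chr3:138553771-138554020, minus strand, under an unlabelled peak: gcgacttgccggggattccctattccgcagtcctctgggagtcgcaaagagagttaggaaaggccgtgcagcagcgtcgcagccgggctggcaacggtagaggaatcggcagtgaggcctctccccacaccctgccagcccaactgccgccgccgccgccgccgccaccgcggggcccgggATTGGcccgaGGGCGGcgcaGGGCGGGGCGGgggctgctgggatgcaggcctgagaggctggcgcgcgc
The GC box is the motif with the most copies over these 4 promoters. The 250 bases upstream of the start site held 5 GC boxes for PIK3R1, 1 for PIK3CD, 3 for PIK3CB and 1 for PIK3CA. At least 1 was present in 42.6% of the same stretch of 35116 RefSeq promoters. The covered promoters not shown differed among themselves. Those of PIK3R5 and PIK3AP1 held 4 and 1 GC boxes, that of PIK3R2 at least 1 and that of INPP5D 0. GGAAGT was present in those of PIK3R2, PIK3AP1 and INPP5D. PIK3CA and PIK3CB also held 1 CCAAT box each, a motif of 32.0% of all promoters. None of the 4 promoters shown held AGGTCA, a motif of 12.1% of all promoters, and 4 are too few to set against that share.

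The next sequences surround the apexes of unlabelled peaks, to show the highest unlabelled peak at PIK3R1, PIK3CD, PIK3AP1 and INPP5D and the peak with AGGTCA at PIK3CD. The apex is the midpoint of the interval of largest signal, and the windows reach 100 bases to each side of it on the plus strand of hg19, without bases of annotated exons.
PIK3R1 intron, chr5:67535478-67535678, plus strand: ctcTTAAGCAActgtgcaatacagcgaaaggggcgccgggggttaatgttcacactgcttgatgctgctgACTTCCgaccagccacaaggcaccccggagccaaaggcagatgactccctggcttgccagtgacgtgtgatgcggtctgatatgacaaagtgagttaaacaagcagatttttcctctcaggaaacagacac
PIK3CD 5′ end, chr1:9689820-9689946, plus strand: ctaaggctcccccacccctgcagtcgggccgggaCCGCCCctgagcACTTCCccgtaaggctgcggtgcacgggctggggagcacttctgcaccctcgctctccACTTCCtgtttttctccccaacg
PIK3CD intron, chr1:9736596-9736796, plus strand: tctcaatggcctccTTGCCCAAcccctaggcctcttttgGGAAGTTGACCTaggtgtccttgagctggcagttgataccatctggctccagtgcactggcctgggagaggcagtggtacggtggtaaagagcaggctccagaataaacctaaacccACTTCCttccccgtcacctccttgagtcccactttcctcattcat
PIK3AP1 upstream, chr10:98518274-98518474, plus strand: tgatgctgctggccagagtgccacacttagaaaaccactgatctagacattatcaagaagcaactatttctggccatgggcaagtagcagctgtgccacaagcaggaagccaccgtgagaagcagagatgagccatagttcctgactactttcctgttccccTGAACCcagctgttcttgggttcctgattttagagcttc
INPP5D intron, chr2:233949326-233949526, plus strand: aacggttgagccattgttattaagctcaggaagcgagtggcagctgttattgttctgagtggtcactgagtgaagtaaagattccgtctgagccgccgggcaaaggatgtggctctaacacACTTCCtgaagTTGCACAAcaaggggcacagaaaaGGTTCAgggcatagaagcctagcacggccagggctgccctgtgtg
GGAAGT is seen in 4 of these 5 windows, which were picked for height or for AGGTCA. Of all 15 unlabelled peaks here 8 held it, or 53.3%, with a Wilson interval of 30.1 to 75.2%. The share of all unlabelled peaks of the list, 34.8%, lies within that interval. Some of the 15 peaks are neighbours at the same gene, so they are not independent. In the windows shown, the PIK3CD intron holds GGAAGT directly beside AGGTCA on the other strand, as GGAAGTTGACCT. Of these windows, that at the PIK3CD 5′ end is the only one with a GC box.

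PIK3CD (ENSG00000171608, plus strand, chr1:9689947-9789172) encodes the class IA catalytic subunit that is most abundant in leukocytes. It was the only one of the listed catalytic genes with a labelled peak. That peak, chr1:9711287-9713164, had a height (the largest signal within the peak, in the units of the list) of 16 and a width of 1878 bp. By height it ranked 14278 of 15412, a place shared by 1115 peaks and with only 20 peaks below it, and by width it ranked 1305, wider than 91.5% of all peaks. Its largest signal held over an interval of 944 bp, so its apex is loosely placed. The apex lay 290 bp downstream of the nearest PIK3CD start site, in intron 1.

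The labelled PIK3CD peak was neither the highest nor the widest at the locus. An unlabelled peak at the first start site of the gene, chr1:9689382-9691391, had a height of 35 (rank 3088) and a width of 2010 bp (rank 1037), with its apex 27 bp upstream of that start site. Further upstream, the unlabelled peak chr1:9686945-9687696 had a height of 22 (rank 9138) and a width of 752 bp (rank 8615), with its apex 2765 bp before the gene. The outermost, chr1:9675527-9675907, had a height of 16 (rank 14278), a width of 381 bp (rank 13624) and an apex 14110 bp before the gene. Within the gene, the peak chr1:9736364-9737355 in intron 1 had a height of 27 (rank 6155) and a width of 992 bp (rank 6028). The tallest and widest signal of the locus thus stood at the 5′ end of the gene, 21839 bp before the centre of the labelled peak.

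The PIK3CD locus held further peaks that the selection left out. A peak labelled with PIK3CD-AS1, a lncRNA gene that lies within PIK3CD, spanned chr1:9713934-9714871, 769 bp from the labelled PIK3CD peak, with a height of 31 (rank 4397) and a width of 938 bp (rank 6564). Peaks have no strand, so signal of PIK3CD and of this gene cannot be told apart here. The nearest unlabelled peak past the limit, chr1:9764753-9765118 in intron 2, had its centre 52710 bp from that of the labelled peak and a height of 22, whereas the farthest one within the limit, at PIK3R2, lay at 45228 bp with a height of 20. Downstream of it, the peaks chr1:9777194-9778328 and chr1:9779220-9779463 had heights of 31 and 21 and lay 262 bp and 479 bp downstream of internal PIK3CD start sites. Counting every peak, 6 apexes lay inside the 99.2 kb of PIK3CD, and 0.657% of 20098 protein-coding genes held as many or more, a share not corrected for gene length.

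**Figure D1:**
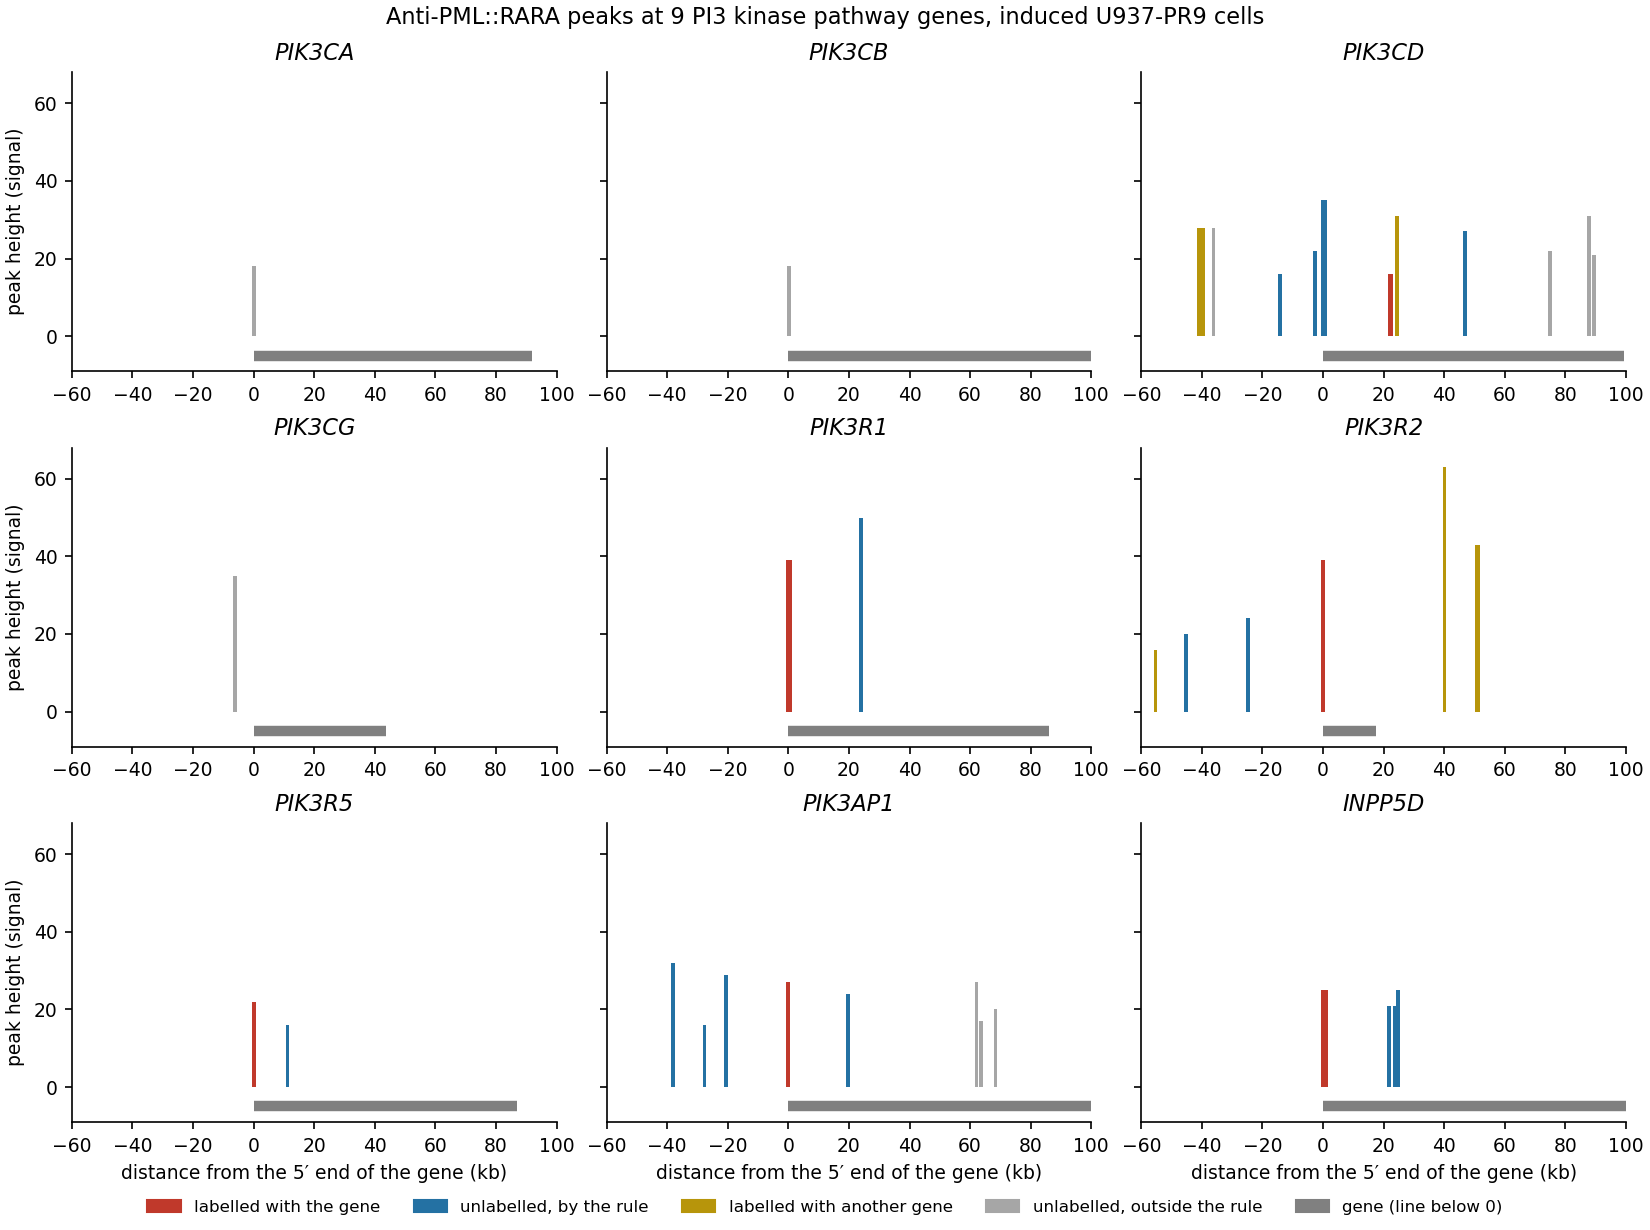
Peaks at the 9 genes, with distance from the 5′ end of the gene in kb on the horizontal axis (positive into the gene) and peak height in units of signal on the vertical axis. Each bar is 1 peak, drawn to its width but at least 1.2 kb wide, and the grey line below 0 is the gene, cut at 100 kb. PIK3CD has the most bars inside the gene, and its labelled peak, at a height of 16, is the lowest there, while PIK3CA, PIK3CB and PIK3CG have no labelled peak.

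The other 3 listed catalytic genes had no labelled peak, but a peak lay at the start of 2 of them. At PIK3CA (ENSG00000121879), the class IA catalytic subunit often mutated in solid tumours, the unlabelled peak chr3:178865660-178866322 was 18 high (rank 12401) and 663 bp wide (rank 9714), and its apex preceded a start site by 21 bp. At PIK3CB (ENSG00000051382), the other widely expressed class IA catalytic subunit, the unlabelled peak chr3:138553035-138554329 also had a height of 18 (rank 12401) but a width of 1295 bp (rank 3691), and its apex lay in the 5′ UTR in exon 1, 6 bp downstream of a start site. Both heights were below the median of 25 of the list. PIK3CG (ENSG00000105851), the class IB catalytic subunit of myeloid cells, had no peak over its start site. The nearest, chr7:106499186-106499856, had its apex 6105 bp upstream, with a height of 35 (rank 3088) and a width of 671 bp (rank 9598). With a peak counted for a gene when its apex lay within 1 kb of any annotated start site, 8 of the 9 genes had a peak, PIK3CG being the exception, against 39.2% of protein-coding genes. The count is not independent of the selection, since all 6 labelled peaks had such an apex. The 9 genes have 5 to 32 annotated start sites each, and the share was not matched for that number. No difference was tested.

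Among the regulatory genes, PIK3R1 carried the strongest signal. PIK3R1 (ENSG00000145675, plus strand, chr5:67511568-67597649) encodes the main regulatory subunit of class IA enzymes, which stabilises and restrains the catalytic subunit. Its labelled peak, chr5:67510765-67512609, had a height of 39 (rank 2104, shared by 209 peaks) and a width of 1845 bp (rank 1395). The signal summed over it was 30731, rank 460 of the list and the largest of the 21 peaks, and its apex lay 112 bp upstream of the start site. The unlabelled PIK3R1 peak, chr5:67535087-67535846, was higher still at 50 (rank 625, shared by 81 peaks), above 95.4% of all peaks and the highest of the 21, although its width of 760 bp ranked only 8519. It lay in intron 2, and its apex was 148 bp upstream of the start site of another PIK3R1 transcript. These 2 peaks stood alone, since the next peak lay 1007632 bp to the left and 138269 bp to the right.

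PIK3R2 (ENSG00000105647, plus strand, chr19:18263973-18281342) encodes another class IA regulatory subunit. Its labelled peak, chr19:18263151-18264670, matched that of PIK3R1 in height at 39 (rank 2104), with a width of 1520 bp (rank 2466) and an apex 541 bp upstream of the start site. The start site nearest to that apex, at 536 bp, was of another annotated protein-coding gene, ENSG00000268173. Signal of PIK3R2 and of that gene cannot be told apart here. The unlabelled PIK3R2 peaks both lay in introns of the neighbouring gene MAST3. The peak chr19:18238917-18239477 had a height of 24 (rank 7817) and a width of 561 bp (rank 11135), and chr19:18218525-18218840 a height of 20 (rank 10691) and a width of 316 bp (rank 14390). Neither was near a PIK3R2 start site, with apexes 24880 and 45348 bp upstream. PIK3R5 (ENSG00000141506, minus strand, chr17:8782228-8869029), a regulatory subunit of the class IB enzyme, had lower peaks. Its labelled peak, chr17:8868138-8869503, had a height of 22 (rank 9138), a width of 1366 bp (rank 3272) and an apex 347 bp upstream of the start site, within intron 1 of the divergent lncRNA gene PIK3R5-DT. The unlabelled one, chr17:8857695-8858010 in intron 1 of PIK3R5, had a height of 16 (rank 14278) and a width of 316 bp (rank 14390), among the lowest and narrowest of the 21.

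PIK3AP1 (ENSG00000155629, minus strand, chr10:98353072-98480271), also called BCAP, is an adaptor that brings class IA enzymes to receptors in B cells and myeloid cells. Its labelled peak, chr10:98479593-98480971, had a height of 27 (rank 6155), a width of 1379 bp (rank 3203) and an apex 474 bp upstream of the start site. It had 4 unlabelled neighbours, 3 of them upstream of the gene in intergenic sequence. Of these, chr10:98500477-98501083 had a height of 29 (rank 5211) and a width of 607 bp (rank 10469). The peak chr10:98507562-98508344 had a height of 16 (rank 14278) and a width of 783 bp (rank 8250). The farthest, chr10:98518250-98518579, had a height of 32 (rank 4034) with a width of only 330 bp (rank 14239). It was the highest at the gene and the narrowest, and it lay 38132 bp from the labelled peak. Inside the gene, chr10:98460257-98460828 in intron 2 had a height of 24 (rank 7817) and a width of 572 bp (rank 10985), 27 bp upstream of an internal start site. A further 3 unlabelled peaks deeper in the gene, with heights of 17 to 27, lay past the distance limit. In all, 4 apexes lay in the gene body of 127.2 kb. That number was reached by 1.93% of protein-coding genes, a share not corrected for gene length.

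INPP5D (ENSG00000168918, plus strand, chr2:233924677-234116549) had the widest of the 21 peaks. Its labelled peak, chr2:233923984-233926196, had a width of 2213 bp (rank 719, wider than 95.3% of all peaks) but a height of 25 (rank 7226, shared by 591 peaks), equal to the median of the list. The apex lay in the 5′ UTR in exon 1, 10 bp downstream of a start site, the closest of the 6 labelled peaks. The 3 unlabelled peaks clustered in intron 2. They were chr2:233946140-233946568 with a height of 21 (rank 9879) and a width of 429 bp (rank 12998), chr2:233947922-233948672 with a height of 21 (rank 9879) and a width of 751 bp (rank 8627), and chr2:233949134-233949603 with a height of 25 (rank 7226) and a width of 470 bp (rank 12457). Only 1353 and 461 bp separated them, so they are not independent. With a peak of height 28 in intron 12, past the limit, INPP5D held 5 apexes in its 191.9 kb. That number was reached by 1.05% of protein-coding genes, a share not corrected for gene length. Apart from PIK3CD, PIK3AP1 and INPP5D, the listed genes held 0 or 1 apexes.

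**Figure D2:**
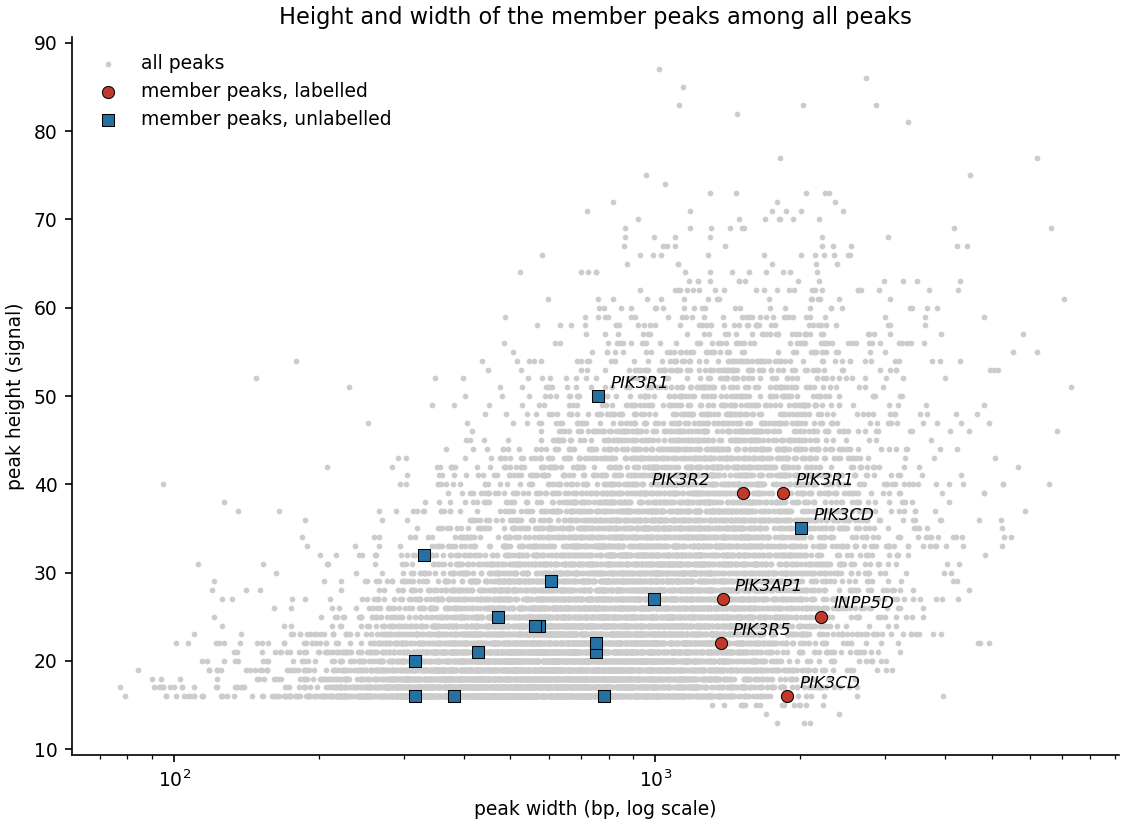
Height (units of signal) against width (bp, log scale) of the 21 peaks among all 15412 peaks of the list, shown in grey. The 6 labelled peaks (circles) lie at widths of 1366 to 2213 bp whatever their height, whereas the 15 unlabelled peaks (squares) are narrower apart from that at the PIK3CD 5′ end, and the PIK3R1 intron peak is the highest at 50.

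Across the genes, the labelled peaks were alike in width and differed in height. Their median width was 1682 bp (range 1366 to 2213 bp), where all labelled peaks of the list had a median of 1108 bp. Heights ran from 16 to 39 with a median of 26, the same as that of all labelled peaks. The 15 unlabelled peaks had a median height of 24 and a median width of 572 bp, where all unlabelled peaks had 23 and 634 bp. An unlabelled peak exceeded the height of the labelled peak of its gene in 6 of 15 cases, and its width in 1 of 15. The 6 cases include the PIK3CD peaks of heights 22, 27 and 35, set against a labelled height of 16. Cases at the same gene share 1 labelled peak and are not independent. The matching share of all unlabelled peaks was not computed. The labelled peak was lower than the highest unlabelled neighbour at PIK3CD, PIK3R1 and PIK3AP1, 3 of 6 genes, as was so for 52.5% of the 3480 labelled peaks with such a neighbour. By the number of unlabelled neighbours within 50 kb, PIK3CD and PIK3AP1 led with 4 each, reached by 8.15% of labelled peaks, whereas PIK3R1 and PIK3R5 had 1 and the median was 0. Of the unlabelled peaks, 7 lay in an intron of their own gene, 2 in introns of MAST3 and 6 in intergenic sequence. These counts include 3 peaks, at PIK3CD, PIK3R1 and PIK3AP1, with an apex within 1 kb of a start site of their gene. The matching shares of all unlabelled peaks are not given here.

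Labelled and unlabelled peaks differed in median base composition, as they did over the list, with overlapping ranges. The share of G and C bases had a median of 65.8% in the 6 labelled peaks and 54.4% in the 15 unlabelled ones, against 62.7% and 53.0% in all labelled and unlabelled peaks. The ratio of observed to expected CpG, which is high in CpG islands, had medians of 0.743 and 0.26, against 0.756 and 0.249. INPP5D departed from the other labelled peaks. Its ratio was 0.324, lower than in the other 5 labelled peaks (0.61 to 0.858), and only 9.58% of all labelled peaks were lower. In the opposite direction, the unlabelled PIK3CD peak before the gene had a ratio of 0.689, above 92.5% of unlabelled peaks. The PIK3R1 pair spanned the range of base composition, with the labelled peak the richest in G and C at 71.2% and the intron peak the poorest at 39.2%, a share below which only 0.825% of unlabelled peaks fell.

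**Figure D3:**
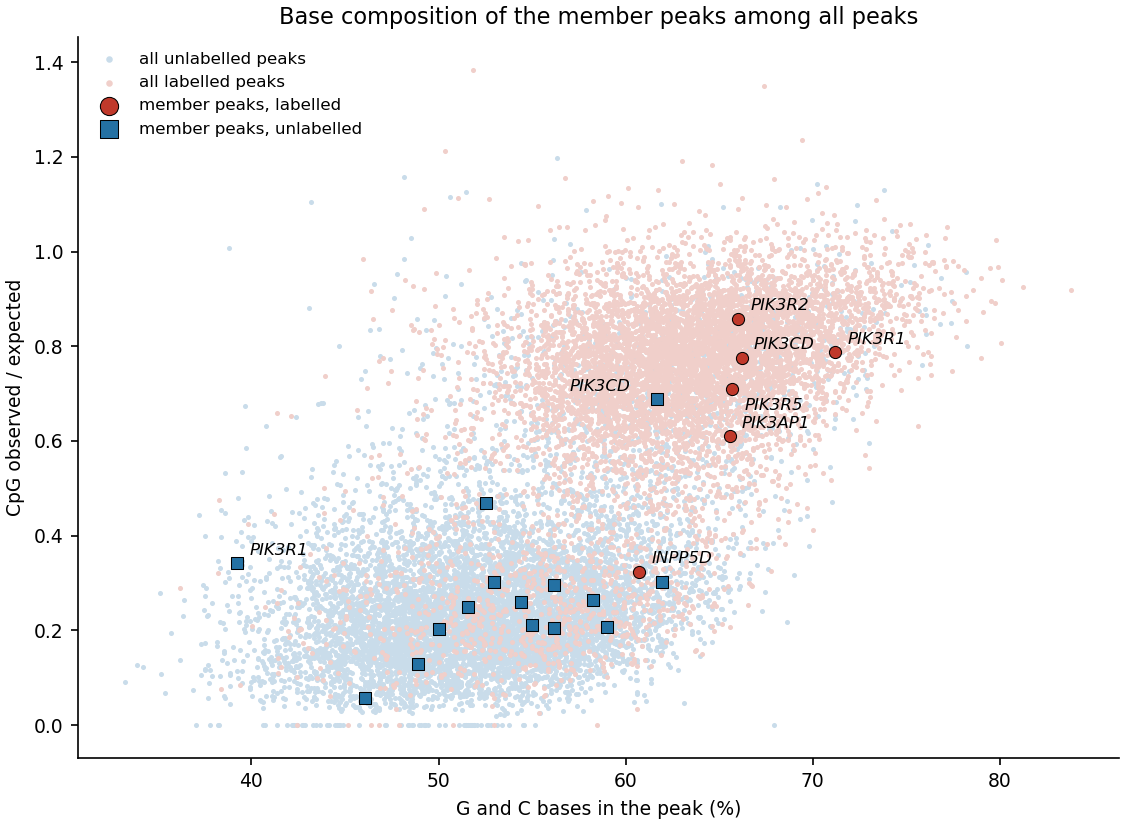
Share of G and C bases (%) against observed over expected CpG for the 21 peaks, with all labelled and unlabelled peaks of the list as pale points. Of the labelled peaks (circles), 5 lie in the CpG-rich cloud and INPP5D, at 0.324, lies in the CpG-poor one, and the 2 PIK3R1 peaks lie at 71.2% and 39.2% G and C.

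Alternative promoters differed in whether a peak covered them. Of the 16 RefSeq promoters, 8 lay under a peak, 6 of them under a labelled and 2 under an unlabelled one. The count of 6 is not independent of the selection, since labelled peaks were included by the authors' promoter label. The share over all RefSeq promoters was not computed. PIK3R1 had 1 of 4 promoters covered, the farthest upstream of them, and the intron peak lay at a GENCODE start site that is none of these 4. PIK3CD had 1 of 3 covered, PIK3CB 1 of 2 and PIK3R5 1 of 2. The PIK3CD 5′ end with the highest peak of the locus is a start site in GENCODE and not among the 3 in RefSeq.

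Motifs were counted in the 201 bases around each apex. GGAAGT was present in 10 of the 21 peaks, a share of 47.6% (Wilson 95% interval 28.3 to 67.6%), against 30.4% of all peaks, whose share lies within that interval. More than 1 copy was present in 3 peaks. AGGTCA was present in 1 of 21 peaks (4.76%, 0.846 to 22.7%), the PIK3CD intron peak, against 13.8% of all peaks. This value depended on the window, being 19.05% against 23.1% with 200 bases to each side of the apex and 14.3% against 12.5% around the peak centre. GGTTCA was present in 2, the INPP5D intron peak and the farthest PIK3AP1 peak shown above, 9.52% against 7.02%. A direct repeat of these core elements spaced by 0 to 10 bases was found in 0 of 21 peaks, which allows a share of up to 14.3%, and in 0.227% of all peaks. TTGCNNAA was present in 3 peaks, in introns of PIK3R1, PIK3CD and INPP5D (14.3% against 9.64%). TGTGGT was present in 2 (9.52% against 19.4%), TGANTCA in 1 (4.76% against 12.5%) and CACGTG in 1 (4.76% against 6.61%). GGGCGG was present in 4 of the 6 labelled peaks, against 61.9% of all labelled peaks, and CCAAT in 0 of 21, which allows a share of up to 14.3%, against 26.1% of all peaks. Each interval covers the counting of peaks only, and with 21 peaks, some of them neighbours, the share of the list lay within the interval for each of the 9 motifs except CCAAT, for which no test was made. A match of letters is no evidence of a bound factor.

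A list of 65 other genes of phosphoinositide metabolism gave the surroundings of the 9 genes. Of these, 34 had a labelled peak, or 52.3%, against 29.9% of all 20149 protein-coding genes. That share also stands beside the counts of the groups below, and no difference from it was tested. The highest labelled peak of each gene had a median height of 30, a measure not given here for all genes. Among the other PI3 kinase genes 4 of 8 had one. PIK3R3, a class IA regulatory subunit, was the highest and widest at 34 and 1519 bp, PIK3C3, the class III kinase of autophagy, had a height of 18 over a width of 302 bp, and the apex nearest to a start site of its partner PIK3R4 lay 147124 bp away. Among the phosphatases 13 of 28 had one. MTMR4 was the highest at 66, and INPPL1 (SHIP2), the close relative of INPP5D, was the widest at 3256 bp with a height of 50, where INPP5D had 2213 bp and 25.

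Among the other phosphoinositide kinases, 7 of 11 genes had a labelled peak, with PIP4K2B the highest and widest at 37 and 1589 bp. Of the adaptors, 3 of 7 had one, IRS2 being the highest at 36 and GAB2 the widest at 2093 bp. Of the PIP3 effectors, 7 of 11 had one. VAV1, an exchange factor of blood cells, was the highest and widest at 44 and 1951 bp. AKT2 had a height of 39, PDPK1, the kinase that activates AKT, had 24, and the apex nearest to an AKT1 start site lay 21239 bp away. The heights of PIK3R1 and PIK3R2, at 39, lay above the medians of all 5 groups, which were 20 to 34, and that of PIK3CD, at 16, lay below all of them.

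**Figure D4:**
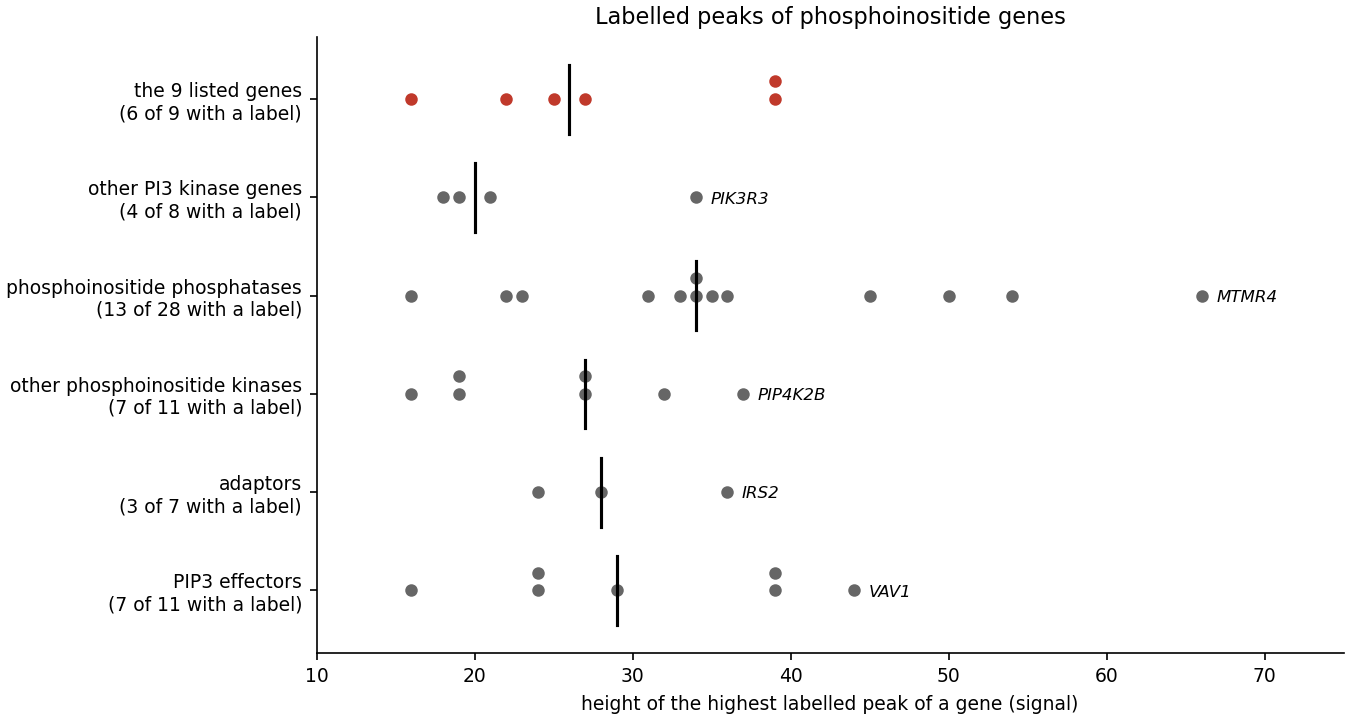
Height (units of signal) of the highest labelled peak of each gene, for the 9 listed genes (red) and 5 groups of related genes (grey), with a black line at the median of each row. The 6 listed genes run from 16 to 39 with a median of 26, within the range of the other groups, of which MTMR4 is the highest at 66.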

How the data were processed

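Per the study's methods and the submitters' processing notes, Trimmomatic was used by the authors for trimming and Bowtie2 for alignment to hg19, followed by SAMtools for duplicates and Bedtools for blacklisted reads. SEACR was run with norm union and the matched control as background, and peaks had to be reproducible over both replicates (IDR below 0.05). For each peak the authors deposited a position, a width in bp, the total signal and the largest signal, called height here. Column names differ from these contents, which were inferred from the values. Whether the signal is of 1 replicate, a mean or pooled reads, and how it was scaled, is not given in the sources used here. The list was assigned to the anti-PML::RARA libraries of induced cells because its number of peaks is the one the study gives for that group. Columns of other samples numbered 0. Gene symbols are the authors' labels. Per the study's methods they come from UCSC hg19 known genes whose promoter the apex overlaps, but some peaks with an apex at an annotated start site, such as that of PIK3CB, have none, and the promoter definition behind this was not tested.

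From these files, peaks were ranked by height and width, with tied peaks given the best rank. Apexes, taken from the start of the interval in the 34 peaks that lack its end, were placed on GENCODE release 44 for GRCh37. Python 3.11.15, numpy 2.4.6, pandas 2.3.3, scipy 1.17.1 and matplotlib 3.10.9 were used, and the functions were tested on simulated data. All 9 listed genes were named, and of the related genes the highest and widest of each group and PIK3C3, PIK3R4, AKT1, AKT2, PDPK1 and INPPL1. A further gene of that rule is not reported here. Genes, lists and motifs were chosen with earlier results of these data known. No test was run, since the peaks were chosen from the readout and the list holds no replicate values.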

Additional observations from a re-analysis of the deposited data

How the results depend on the processing

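Of 22 values recomputed under an alternative, 14 kept within the limit set for a change and 8 moved. The limit was not the same for all values, so these counts do not measure stability. Medians going from 26 to 25 or from 572 to 566.5 bp counted as moved. The share of peaks with AGGTCA, going from 4.76% to 19.05%, counted as kept. When a peak counted for a gene by an apex within 1 kb of an annotated start site instead of by the authors' label, the number of peaks rose from 6 to 13, and their median height and width went from 26 to 25 and from 1682 to 1366 bp. With the distance limit at 100 kb in place of 50 kb there were 24 unlabelled peaks in place of 15, with a median width of 566.5 bp in place of 572 bp, and with 25 kb the median width was 607 bp. Of the unlabelled peaks, 6 reached the median height. Total signal divided by width, another quantity than height, had a median of 9.24 for the labelled peaks. The share of peaks with GGAAGT was 61.9% with 200 bases to each side of the apex, against 42.3% of all peaks, and 38.1% around the peak centre, against 24.2%. That with AGGTCA rose from 4.76% to 19.05% (all peaks 23.1%) and 14.3% (all peaks 12.5%). No paired analysis was possible because the deposited values are not split by replicate, and leaving out a replicate was not possible either. Depth per library is unknown, so no precision can be given for a height. Of all peaks, 1135 had a height of 16 or below, among them 4 of the 21, and their order by height is not resolved.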
